A study of Rattus norvegicus with 12 samples.

Results

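Flot1 (ENSRNOG00000000826) encodes flotillin-1, a scaffold protein of membrane rafts, and its reads were followed here through all 12 libraries of a QuantSeq 3′ mRNA sequencing experiment. It is 1 gene of the 32754 in the count files and 1 of the 7378 that passed the filter on low counts. It was selected on measured values of these libraries, namely its rise with FGF18 in wild-type cells and the difference of that response between genotypes. The values of those comparisons are therefore given as a description, with no test. Only the comparison of the genotypes without FGF18 was not part of the choice, and it was tested.

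Flotillin-1 sits on the cytoplasmic face of the plasma membrane and of endosomes, where it assembles with its partner flotillin-2 into scaffolds rich in cholesterol and sphingolipids. Flotillins are known for a route of endocytosis that does not use clathrin, for the traffic of endosomal cargo and for the organization of signaling complexes at the membrane. FRS2, the docking protein that couples FGF receptors to the MAP kinase cascade, is among the proteins reported to bind flotillin-1.

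The cells were RCS, chondrocytes of a tumor line that came from rat cartilage. The parental line (WT RCS) and 1 clone that CRISPR/Cas9 had made knockout for FGFR3 and FGFR4, both of them FGF receptors (FGFR3/4KO), were cultured overnight in medium with 5% adult bovine serum, without FGF18 (vehicle, called untreated in the labels) or with FGF18. The dose of FGF18 is 50 µg/ml in the labels and 50 ng/ml in the methods of the study. Each of the 4 groups (WT vehicle, WT FGF18, FGFR3/4KO vehicle and FGFR3/4KO FGF18) held 3 libraries labelled as biological replicates.

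Reads counted on genes ranged from 669585 to 947730 in WT vehicle, 846957 to 1196647 in WT FGF18, 373964 to 925006 in FGFR3/4KO vehicle and 840149 to 1140741 in FGFR3/4KO FGF18 libraries. FGFR3/4KO vehicle replicate 2 was the shallowest library, and the values of Flot1 that rest on it are given with and without it. The chondrocyte markers Sox9, Mia, Col11a2 and Fmod were read in 12 of 12 libraries, while Chad and Epyc were low, and the other 5 of the 11 markers were not analysed here by name. The summed level of the 6 named markers was 4281 to 4853 CPM, the reads of a gene scaled to a common library size, in WT and 4985 to 5773 CPM in FGFR3/4KO libraries. The 9 named markers of other cell types, of 11 listed, summed to 22.99 to 29.9 CPM in WT vehicle, 41.0 to 109.1 CPM in WT FGF18, 56.7 to 75.1 CPM in FGFR3/4KO vehicle and 36.9 to 62.6 CPM in FGFR3/4KO FGF18. Among them Alb, the albumin gene of hepatocytes, had a mean of 5.77 CPM in WT vehicle, 19.97 CPM in WT FGF18, 21.9 CPM in FGFR3/4KO vehicle and 3.32 CPM in FGFR3/4KO FGF18. By edgeR's quasi-likelihood test Alb was called higher with FGF18 in WT RCS (log2 fold change 1.79, adjusted p = 0.0235). That call was lost in 4 of 18 alternatives, and Alb was not tested in 1. The interaction of FGF18 and genotype of Alb was -4.35 (adjusted p = 8.87e-04 in the same test). Alb was named after its values were seen, so these calls are no independent support. Its reads in replicates 1 to 3 were 4, 7 and 2 in WT vehicle and 7, 27 and 23 in WT FGF18. In FGFR3/4KO RCS they were 15, 7 and 21 with vehicle and 0, 5 and 6 with FGF18. Syt1, a neuronal gene and the other tested marker, had means of 16.1, 30.3, 23.1 and 23.2 CPM in the same group order. Syt1 was not called in WT RCS (adjusted p = 0.0926) or for the interaction (adjusted p = 0.303) in that test. The mean of Alb in FGFR3/4KO vehicle was above that in WT FGF18 libraries. The part of these markers in the results for Flot1 was not tested. The 2 disrupted receptor genes were not analysed here by name, so the genotypes are those of the labels.

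The sequence just upstream of the start of Flot1 is shown because the gene's mRNA level is the quantity followed below. RefSeq places it on the minus strand at chr20:2932772-2933021 in the GRCr8 assembly, which is another build than the rn6 used for the counts. Capitals mark the GC box, GGGCGG, a motif bound by Sp family factors.

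Flot1 promoter, 250 bases before the start: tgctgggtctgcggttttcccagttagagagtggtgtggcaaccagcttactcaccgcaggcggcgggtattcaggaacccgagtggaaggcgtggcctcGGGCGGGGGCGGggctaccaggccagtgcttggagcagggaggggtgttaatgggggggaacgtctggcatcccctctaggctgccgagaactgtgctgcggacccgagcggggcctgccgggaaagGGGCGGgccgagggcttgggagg

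The GC box was found 3 times on either strand, with its first base 150, 144 and 23 bases before the start, and the 2 distal copies lie end to end. Of all 33469 RefSeq promoter windows of the same length, 30.5% hold at least 1 copy. The window had a GC content of 67.6%, against a median of 51.2% over all promoters. Neither CACGTG, the core of the CLEAR element of TFEB target genes, nor the looser CANNTG, which includes it, was found on either strand, whereas 5.59% and 65.5% of all promoters hold them. The AP-1 motif TGACTCA, which 4.05% of promoters hold, was not found either. Nor were the ETS motif CCGGAAG, in 7.27% of promoters, and the TATA box, searched as TATAAA, in 12.9%. A match describes letters only, and the lack of one says only that these letters are not in this window.

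Flot1 mRNA was low without FGF18 and high with it in WT RCS, and it stayed low with or without FGF18 in FGFR3/4KO RCS. In WT vehicle libraries, replicates 1 to 3 held 12, 10 and 13 reads of Flot1, or 17.4, 13.6 and 13.0 CPM after TMM normalization (mean 14.7 ± 2.38 CPM, SD, n = 3). In WT FGF18 libraries they held 119, 108 and 111 reads, or 97.6, 103.3 and 136.8 CPM (mean 112.5 ± 21.2 CPM, SD, n = 3). The WT FGF18 libraries lay above every WT vehicle library, with no overlap.

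In FGFR3/4KO vehicle libraries, replicates 1 to 3 held 12, 2 and 8 reads of Flot1, or 18.4, 5.67 and 8.77 CPM (mean 10.9 ± 6.63 CPM, SD, n = 3). With FGF18 the FGFR3/4KO libraries held 9, 13 and 12 reads, or 11.9, 11.5 and 11.1 CPM (mean 11.5 ± 0.407 CPM, SD, n = 3). All 3 values with FGF18 lay inside the range of the FGFR3/4KO vehicle libraries. The highest FGFR3/4KO vehicle value came from replicate 1 and the lowest from replicate 2. In that shallowest library, 2 reads have an exact 95% Poisson interval of 0.242 to 7.22 reads, and the level of Flot1 in WT FGF18 cells would give 39.7 reads at its depth. These intervals cover counting error only, since these reads carry no molecular identifiers and can be copies of one molecule.

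**Figure D1:**
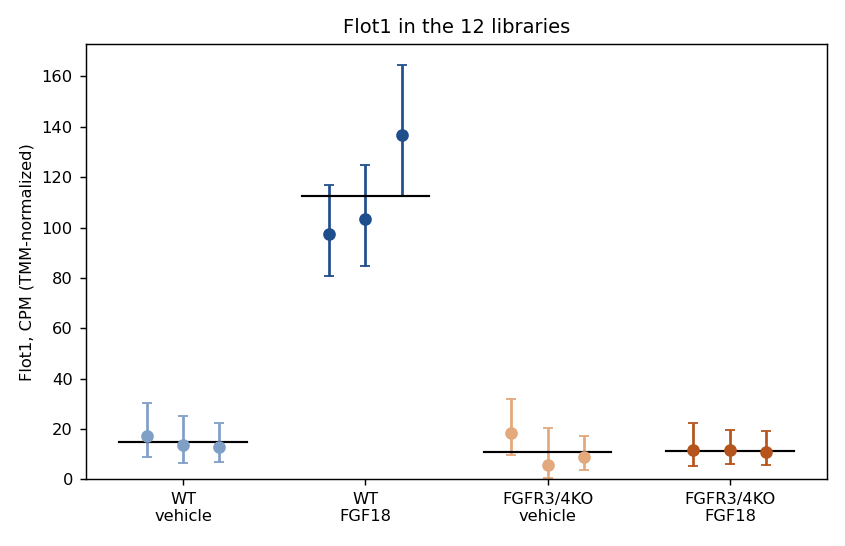
Flot1 in CPM (vertical axis) in each of the 12 libraries, by genotype and treatment (horizontal axis). Points are libraries with exact 95% Poisson intervals and lines are group means. The WT FGF18 libraries sit between 97.6 and 136.8 CPM, and the other 9 libraries at 18.4 CPM or below.

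Ordered by mean CPM, the groups ran from WT FGF18 (112.5) through WT vehicle (14.7) and FGFR3/4KO FGF18 (11.5) to FGFR3/4KO vehicle (10.9). FGFR3/4KO vehicle overlapped both WT vehicle and FGFR3/4KO FGF18. All 3 WT vehicle libraries lay above the FGFR3/4KO FGF18 libraries, but their counting intervals overlapped. The lowest WT FGF18 library was 5.31 times as high as the highest of the other 9 libraries. Its lower counting bound, 80.8 CPM, was above the highest upper bound among those 9, 32.1 CPM. Of the 429 Flot1 reads in the experiment, 338 came from WT FGF18, 35 from WT vehicle, 34 from FGFR3/4KO FGF18 and 22 from FGFR3/4KO vehicle. The samples are bulk RNA, in which more cells that express the gene and more of its RNA per cell cannot be told apart.

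The spread between replicates differed among the groups. The coefficient of variation of Flot1 CPM was 16.3% in WT vehicle, 18.8% in WT FGF18, 60.6% in FGFR3/4KO vehicle and 3.54% in FGFR3/4KO FGF18. Counting alone would give 29.4%, 9.44%, 40.8% and 30.1% at these read numbers. The observed value was above that of counting in WT FGF18 and FGFR3/4KO vehicle and below it in the other 2 groups. Each value rests on 3 libraries, and the difference from counting was not tested.

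The mean of Flot1 in WT RCS was 7.68 times as high with FGF18 as with vehicle. In the model of all 12 libraries the log2 fold change was 2.94 (SE 0.27, 95% interval 2.39 to 3.48), or 7.65-fold (5.25 to 11.2). Of the 7378 tested genes, 41 rose more, and of the 1418 tested genes with a symbol, 5 did. The median log2 fold change of all tested genes was 0.02.

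In FGFR3/4KO RCS the ratio of the Flot1 means with and without FGF18 was 1.05. The fitted log2 fold change was -0.002 (SE 0.39, 95% interval -0.81 to 0.81), so the interval ran from 0.571 to 1.75-fold. Without the shallow replicate 2 of FGFR3/4KO vehicle the value was -0.15 (SE 0.41). Without replicate 1 of that group, the library with the highest Flot1 level, it was 0.54 (SE 0.47). With 22 and 34 reads behind the means, changes smaller than the interval were not detectable at this depth.

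The response of Flot1 to FGF18 was smaller in FGFR3/4KO than in WT RCS by 2.94 on the log2 scale (interaction -2.94, SE 0.51, 95% interval -3.99 to -1.89). Leaving out replicate 2 of FGFR3/4KO vehicle gave -3.07, and leaving out replicate 1 gave -2.39. With FGF18 present, Flot1 was lower in FGFR3/4KO than in WT RCS, with a log2 difference of -3.27 (SE 0.27, 95% interval -3.82 to -2.73), which is 9.66-fold. These libraries are also those of the comparisons above, so the values are not separate evidence.

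Without FGF18, a difference of Flot1 between the genotypes was not detected. The mean was 10.9 CPM in FGFR3/4KO and 14.7 CPM in WT RCS, and 2 of 3 FGFR3/4KO libraries lay below all 3 WT libraries. The log2 difference was -0.33 (SE 0.40, 95% interval -1.15 to 0.48), or 0.794-fold (0.452 to 1.40), with an adjusted p of 0.635 by the quasi-likelihood test of edgeR after Benjamini-Hochberg adjustment. A two-sided exact permutation test of the log2 CPM gave p = 0.4, where 0.1 is the smallest that 3 against 3 libraries allow. In this comparison 8% of tested genes were called higher and 6.07% lower in FGFR3/4KO. Without replicate 1 of FGFR3/4KO vehicle the difference was -0.87, without replicate 2 it was -0.16 and without replicate 3 it was -0.08. The adjusted p from edgeR or DESeq2 ranged from 0.282 to 0.965 over the alternatives that gave a value. With only these groups compared, Flot1 did not pass the filter on low counts and was not tested.

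Flot1 lies in the region of the major histocompatibility complex on rat chromosome 20, and the genes beside it were compared with it. In the RefSeq gene order of GRCr8, the next protein-coding gene on the side of the start of Flot1 is Ier3, an immediate-early gene induced by growth factors. Ier3 (ENSRNOG00000000827) had 0 reads in each WT vehicle library and 13, 14 and 14 reads, or 10.7, 13.4 and 17.2 CPM, in the WT FGF18 libraries. In FGFR3/4KO RCS it had 2, 0 and 0 reads with vehicle and 0, 0 and 2 reads with FGF18.

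Both Flot1 and its neighbor were thus highest in the same 3 libraries. Set against the limit of 3 reads over the WT vehicle group, 1.24 CPM, Ier3 was at least 10.8-fold higher with FGF18. Ier3 did not pass the filter on low counts, and without that filter, over 14534 genes, its adjusted p from edgeR's quasi-likelihood test was 2.09e-06 in WT RCS and 0.0372 for the interaction. Whether reads of the pair could be exchanged was not tested, because the strand setting of the counting is not given in the sources used here.

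Of the other genes within 3 places of Flot1, Nrm and Gtf2h4 have a symbol here, and the rest were not analysed here by name. Nrm, which encodes the inner nuclear membrane protein nurim and lies 3 places from Flot1 on the side of its end, had 0 to 3 reads per library, too few to compare groups. Gtf2h4, a subunit of the transcription factor TFIIH, lies 3 places away on the side of Ier3 and had 47, 47, 41 and 74 reads in WT vehicle, WT FGF18, FGFR3/4KO vehicle and FGFR3/4KO FGF18. Its log2 fold change with FGF18 in WT RCS was -0.35 (SE 0.39, adjusted p = 0.563 in edgeR's quasi-likelihood test).

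The list of 23 region genes beside Flot1 held only genes with a symbol here. Of these, 16 were tested, and in WT RCS 1 rose with FGF18 and 3 fell, where 12.9% of all tested genes rose and 12.8% fell. The number called higher was 2 in 13 alternatives and 1 in the other 5. The median log2 fold change of the list was -0.11 in WT and 0.05 in FGFR3/4KO RCS. Ddah2, which encodes an enzyme that breaks down methylated arginines, rose by a log2 fold change of 1.48 (SE 0.31, adjusted p = 7.31e-04 in edgeR's quasi-likelihood test). It went from 14.9 ± 6.10 to 40.9 ± 5.82 CPM (SD, n = 3), 48 places from Flot1. The largest fall was that of Vars, the valyl-tRNA synthetase, with a log2 fold change of -0.98 (SE 0.19, adjusted p = 3.93e-04 in the same test). Ddah2 was the only tested gene of the list with all 3 WT FGF18 libraries above all other 9 libraries, as was Ier3 among the 7 untested ones. Of all tested genes, 9.89% had that separation.

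**Figure D2:**
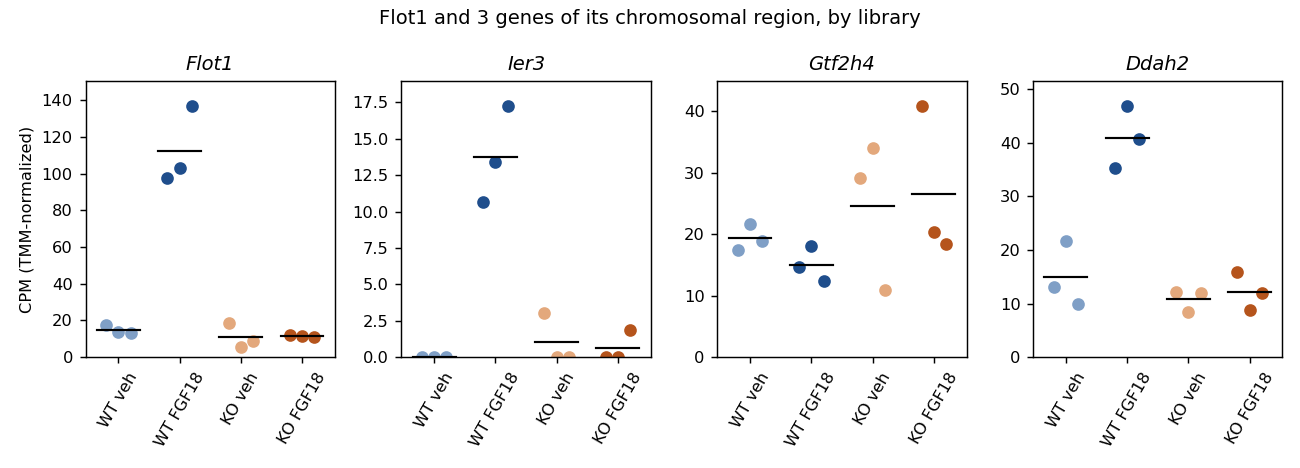
CPM (vertical axes, each from 0 on its own scale) of Flot1, Ier3, Gtf2h4 and Ddah2 in the 12 libraries, by group (horizontal axes, KO standing for FGFR3/4KO and veh for vehicle). Points are libraries and lines are group means. Flot1, Ier3 and Ddah2 are highest in the 3 WT FGF18 libraries and Gtf2h4 is not.

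The genes whose levels followed those of Flot1 most closely were ranked by Pearson's r of log2 CPM over the 12 libraries, among 1417 other named genes. The libraries fall into one high and 3 low groups, so r mainly measures that split. It is given as a description. In all, 15 genes had r above 0.9 and 31 had r below -0.9.

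The closest was Vgf (r = 0.97, Spearman's rho 0.70), which encodes a secreted neuropeptide precursor. It had 22, 19 and 25 reads in the WT FGF18 libraries, a total of 1 read in FGFR3/4KO RCS and 0 reads in WT vehicle libraries. That makes it at least 17.3-fold higher with FGF18 against the limit of 3 reads over the group. Vgf thus passed the filter on low counts only through the group where it was high. Rnf145 (r = 0.97, rho 0.83), a ubiquitin ligase of the ER membrane, rose in WT RCS from 40.3 ± 2.85 CPM to 62.6 ± 4.93 CPM when FGF18 was added (SD, n = 3). Its change was 0.64 on the log2 scale, far smaller than that of Flot1, and what it shared with Flot1 was the split of WT FGF18 from the other 3 groups.

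Phlda1 (r = 0.96, rho 0.62), a pleckstrin homology-like protein induced by growth factors, went from 131.6 ± 11.7 to 1191 ± 27.5 CPM in WT RCS (SD, n = 3). In FGFR3/4KO RCS it was 115.8 ± 9.55 CPM with vehicle and 158.8 ± 35.2 CPM with FGF18. Cstb (r = 0.96, rho 0.88), which encodes the cathepsin inhibitor cystatin B, went from 16.6 ± 2.26 to 49.9 ± 9.21 CPM in WT RCS. Both FGFR3/4KO groups stayed near the WT vehicle level, as they did for Flot1, at 15.2 ± 7.29 and 15.3 ± 2.09 CPM. Cdkn2b (r = 0.96, rho 0.52), an inhibitor of the cell cycle kinases CDK4 and CDK6, stood at 28.5 ± 6.52 CPM in the WT vehicle and at 373.8 ± 99.9 CPM in the WT FGF18 libraries, whereas the FGFR3/4KO groups stood at 34.1 ± 8.13 and 35.8 ± 6.39 CPM.

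The 3 genes most opposite to Flot1 were Srsf2 (r = -0.99, rho -0.84), a splicing factor, Ezh2 (r = -0.97, rho -0.84), the histone methyltransferase of the Polycomb complex PRC2, and Mcm6 (r = -0.97, rho -0.82), a subunit of the replicative helicase. Their log2 fold changes with FGF18 in WT RCS were -0.71, -1.11 and -0.94. In each, all 3 WT FGF18 libraries lay below the other 9, a split that the choice by r favors. The share of all tested genes with that split was not counted. Ezh2, for example, fell from 396.8 ± 28.6 to 182.1 ± 39.2 CPM in the WT libraries, while the FGFR3/4KO groups stood at 495.7 ± 34.6 and 448.9 ± 18.9 CPM (SD, n = 3).

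**Figure D3:**
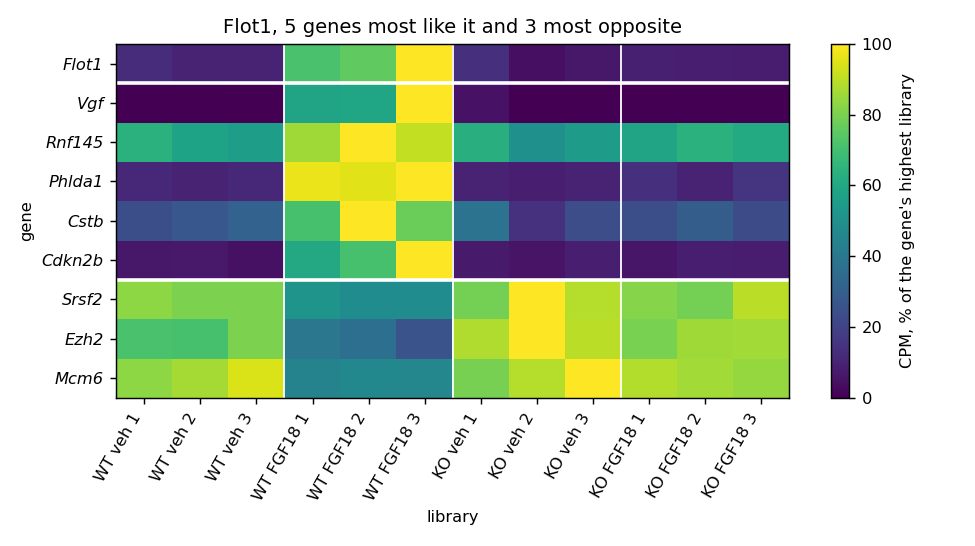
CPM of Flot1, of the 5 named genes most like it and of the 3 most opposite (vertical axis) in each library (horizontal axis), coloured as a percentage of the gene's highest library. Flot1 was at 71.3 to 100% in the WT FGF18 libraries and at 13.4% or below in the other 9.

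Genes that work where Flot1 works were read from lists of raft proteins, lipid metabolism, endocytosis and FGF receptor signaling. None of the 19 listed members of the flotillin, stomatin, caveolin and cavin families, the partner Flot2 among them, was analysed here by name. Whether the partner rose with Flot1 is thus not answered here. The other lists held only genes with a symbol, which 1998 of the 32754 genes have, so members of these pathways may be missing. No list member that was tested rose as much as Flot1 in WT RCS, but Flot1 was chosen for its rise.

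Of 24 raft-associated and tetraspanin membrane proteins, 15 were tested, and with FGF18 in WT RCS 4 rose and 2 fell, beside the 12.9% and 12.8% of all tested genes that rose and fell. Those that rose were Cd82, Marcks, Emp2 and Atp2b4, and those that fell were Pmp22 and Atp2b1. The call of Atp2b1 was lost in 11 of 18 alternatives, with an adjusted p of up to 0.142 by edgeR or DESeq2. Cd82, a tetraspanin of membrane microdomains, came nearest to Flot1 and went from 116.6 ± 5.07 to 575.8 ± 120.5 CPM (SD, n = 3), a log2 fold change of 2.30 (SE 0.18, adjusted p = 1.93e-10 in edgeR's quasi-likelihood test). In FGFR3/4KO RCS Cd82 was 248.8 ± 49.5 CPM with vehicle and 233.4 ± 47.0 CPM with FGF18. Pmp22, a tetraspan protein of myelin and other membranes, fell with a log2 fold change of -1.34 (SE 0.15, adjusted p = 1.88e-07 in the same test). The median of the list was 0.13 in WT and -0.04 in FGFR3/4KO RCS.

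Of 18 genes of sphingolipid and cholesterol metabolism, which supply the lipids of rafts, 16 were tested, and 1 rose and 1 fell, where 12.9% and 12.8% of all tested genes did. Kdsr, an enzyme of the first steps of sphingolipid synthesis, went from 3.33 ± 0.655 to 14.9 ± 3.30 CPM (SD, n = 3), a log2 fold change of 2.15 (SE 0.57, adjusted p = 0.00565 in edgeR's quasi-likelihood test). Its reads were 2, 3 and 3 in WT vehicle and 21, 17 and 9 in WT FGF18 libraries, so it passed the filter on low counts largely through the group where it was high. It did not pass that filter, and was not tested, with only the groups compared or without WT FGF18 replicate 1 or 2. Smpd3, a neutral sphingomyelinase needed for skeletal development, had a log2 fold change of -0.43 (SE 0.14, adjusted p = 0.0193 in the same test). Its call was lost when any 1 of 5 of the WT libraries was left out, with adjusted p up to 0.0656. The median of the list was -0.09.

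Of 32 genes of endocytosis and endosomal recycling, 31 were tested, and 5 rose and 1 fell, where 12.9% and 12.8% of all tested genes did, and the median log2 fold change was 0.21. The largest rise was that of Snx12, a sorting nexin of endosomes, at 1.55 (SE 0.26, adjusted p = 6.31e-05 in edgeR's quasi-likelihood test), and the other 4, Arf6, Sh3kbp1, Snx8 and Hip1, rose by 0.40 to 0.57. Without WT vehicle replicate 3, 2 genes of the list were called higher. Hip1r, which links clathrin coats to actin, had a log2 fold change of -0.48 (SE 0.16, adjusted p = 0.0239 in the same test), a call that was lost without WT vehicle replicate 1 or 2 or WT FGF18 replicate 3.

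Of 27 genes of the FRS2 and MAP kinase pathway, 15 were tested, and 1 rose and 3 fell, where 12.9% and 12.8% of all tested genes did. Etv5, an ETS factor that is a target of FGF signaling, went from 10.9 ± 2.49 to 70.6 ± 12.5 CPM in WT RCS (SD, n = 3), a log2 fold change of 2.64 (SE 0.29, adjusted p = 8.83e-08 in edgeR's quasi-likelihood test). The FGFR3/4KO vehicle libraries held Etv5 at 56.1 ± 3.18 CPM and the FGFR3/4KO FGF18 libraries at 97.1 ± 26.03 CPM, the highest mean of the 4 groups. Sh2b2, an adaptor of receptor tyrosine kinases, fell with a log2 fold change of -1.25 (SE 0.22, adjusted p = 9.07e-05 in the same test). Frs2, whose product is the flotillin-1 partner named above, had a log2 fold change of -0.07 and was not called. The median of the list was -0.08 in WT and 0.32 in FGFR3/4KO RCS.

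**Figure D4:**
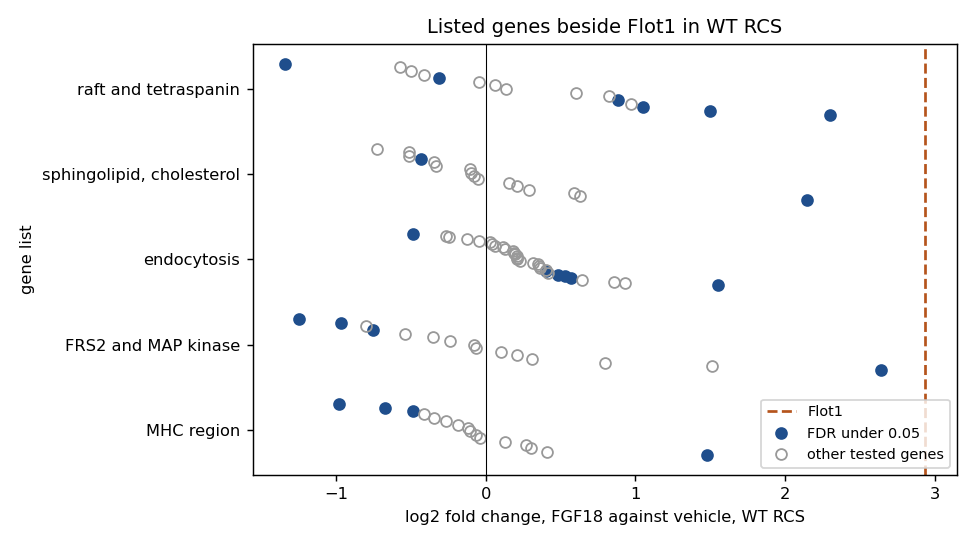
Log2 fold change with FGF18 in WT RCS (horizontal axis) of each tested member of 5 gene lists (vertical axis), filled where the adjusted p is under 0.05. The dashed line marks Flot1 at 2.94, to the right of all plotted genes, of which Etv5 is the nearest at 2.64. Flot1 was chosen for its rise in WT RCS, and untested members such as Ier3 are not plotted.

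In the test of the interaction over all genes, 4.96% of tested genes were called with a smaller log2 response in FGFR3/4KO than in WT RCS and 5.91% with a larger one. Among the list genes with the largest changes, Cd82 (-2.38), Etv5 (-1.86) and Snx12 (-1.18) had a smaller response by edgeR's quasi-likelihood test. Vars (0.93), Pmp22 (1.30) and Sh2b2 (1.45) had a larger one in the same test. All were chosen for their change in WT RCS, which the interaction holds, so that test is no independent support. Without the shallow FGFR3/4KO vehicle replicate 2 the call of Snx12 was lost (-1.11, adjusted p = 0.0889 by edgeR), and the other 5 genes stayed called. The interaction of Ddah2 was -1.42 with an adjusted p of 0.0849, and those of Kdsr, Smpd3 and Hip1r did not pass either, with adjusted p of 0.128, 0.158 and 0.375 in the same test.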

How the data were processed

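QuantSeq 3′ mRNA libraries from 12 RCS cultures were used, grouped and numbered by the labels. QuantSeq reads transcripts near their 3′ ends. Per the labels and the methods of the study, trimming was by Trim Galore, alignment to rn6 by STAR and counting by htseq-count. The values that the authors deposited are raw counts of reads on each gene. Tool versions and the strand setting are not given in the sources used here, so overlapping and antisense genes cannot be told apart. Gencode v19 is the annotation given in the methods, although the identifiers are rat Ensembl ones. The 5 rows of uncounted read classes were left out. Reads on genes were 12.5 to 18.8% of all reads, and the low-quality class held 77.0 to 79.8% in WT and 71.2 to 74.6% in FGFR3/4KO libraries.

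From the counts, edgeR 4.0.16 in R 4.3.3 was used. Genes were kept by filterByExpr (minimum count 10, minimum total 15), libraries were normalized by TMM, and all 12 entered one quasi-likelihood model with a mean per group and Benjamini-Hochberg adjustment over 7378 genes, with a threshold of 0.05. Log2 CPM used a prior count of 2. The smallest amount that 3 reads can show was 2.46 to 8.50 CPM per library. The script was tested on simulated data. Symbols come from the identifier and symbol pairs of the study's expression table, 1998 in all, of which 1418 were tested. Promoter sequences and gene order come from RefSeq (GRCr8).

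Flot1 and the lists were chosen with earlier results of these data known. Also named were the 5 genes most like Flot1 and the 3 most opposite in Pearson's r, the called gene with the largest rise and fall in each list, Ier3, Nrm and Gtf2h4. Marcks, Emp2, Atp2b4, Atp2b1, Arf6, Sh3kbp1, Snx8, Hip1, Frs2, Alb and Syt1 were named after their values were seen. Alternatives were upper-quartile normalization, DESeq2 1.42.0, no filter, at least 1 CPM in 3 libraries, only the groups compared, a replicate block, Spearman's correlation and each library left out in turn.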

Additional observations from a re-analysis of the deposited data

Results flagged for a closer look

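For Flot1 the response to FGF18 differed between WT and FGFR3/4KO RCS, with an interaction of -2.94 on the log2 scale (SE 0.51). The difference was part of why Flot1 was chosen, so it carries no test.

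Of the 5 genes chosen for their likeness to Flot1, the 3 whose interaction passed the threshold of 0.05 in edgeR's quasi-likelihood test are listed, while Vgf and Rnf145 did not pass. Since likeness to Flot1 was how they were chosen, that test is no independent support, and no p is given. The interactions were -3.71 (SE 0.37) for Cdkn2b, -2.74 (SE 0.22) for Phlda1 and -1.62 (SE 0.46) for Cstb. For the opposite genes they were 0.62 (SE 0.17) for Srsf2, 0.88 (SE 0.19) for Mcm6 and 0.98 (SE 0.20) for Ezh2. Without FGFR3/4KO vehicle replicate 2 the interaction was -3.78 for Cdkn2b, -2.75 for Phlda1, -1.75 for Cstb and 1.07 for Ezh2.

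The list genes below passed the threshold in edgeR's quasi-likelihood test of the interaction, with adjustment over all tested genes. They were named for the largest called change of their list in WT RCS, which the interaction holds. Their adjusted p is therefore no independent support for a difference between the genotypes. Cd82 had an interaction of -2.38 (adjusted p = 2.06e-07), Etv5 of -1.86 (adjusted p = 0.00126) and Snx12 of -1.18 (adjusted p = 0.0433) by edgeR. Vars had 0.93 (adjusted p = 0.0219), Pmp22 1.30 (adjusted p = 1.39e-04) and Sh2b2 1.45 (adjusted p = 0.00133) by edgeR. Without FGFR3/4KO vehicle replicate 2 these were -2.26, -1.84, -1.11, 1.02, 1.37 and 1.49 in the same order, and the adjusted p of Snx12 rose to 0.0889 by edgeR. A negative value means a smaller log2 response in FGFR3/4KO than in WT RCS.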

How the results depend on the processing

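Under all alternatives that gave a value, the values of Flot1 kept their direction or stayed within their error. The latter holds for the FGFR3/4KO response and the comparison without FGF18. Both moved by more than the SE of the main model when FGFR3/4KO vehicle replicate 1 was left out. With only the groups compared, Flot1 did not pass the filter on low counts in those comparisons and had no value. Leaving out each library in turn gave 2.77 to 3.06 for the WT log2 fold change, -0.24 to 0.54 in FGFR3/4KO, -3.15 to -2.39 for the interaction, -3.36 to -3.09 between genotypes with FGF18 and -0.87 to -0.08 without it. The other alternatives gave 2.92 to 2.95, -0.01 to 0.04, -2.95 to -2.88, -3.31 to -3.22 and -0.36 to -0.33. Among the lists in WT RCS, raft genes called lower were 1 in place of 2 with DESeq2, no filter, at least 1 CPM in 3 libraries or the replicate block, and 1 to 2 with a library left out. Lipid genes called higher were 0 in place of 1 with only the groups compared, and 0 to 2 with a library left out, and those lower 0 to 1. Endocytosis genes called higher were 3 in place of 5 with DESeq2, at least 1 CPM in 3 libraries or only the groups compared, and 2 to 6 with a library left out, and those lower 0 to 1. MAP kinase pathway genes called higher were 2 in place of 1 with no filter, only the groups compared or the replicate block. Region genes called higher were 2 in place of 1 in 13 alternatives and 1 in the other 5. The 13 include no filter and at least 1 CPM in 3 libraries, where Ier3 was the added gene. The rest of the 13 had a library left out. The cause of the other changes was not tested. Spearman's rho of the genes like Flot1 was 0.52 to 0.88. Over all genes in WT RCS, 643 were called higher and 679 lower without WT vehicle replicate 3, and 733 and 786 with DESeq2, against 950 and 948.

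The replicate numbers did not pair the libraries, since deviations from the group means correlated at a mean r of -0.03 over 18 pairs with the same number and 0.02 over 36 pairs with other numbers. With the replicate block, 876 genes were called higher and 884 lower in WT RCS.

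Flot1 rests on 2 to 13 reads in each library outside WT FGF18, which limits what can be said of its level there.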
